A study of Sus scrofa with 2 samples.

Results

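Granins and prohormone-processing enzymes are the genes of the regulated secretory pathway, and FURIN is the convertase of the constitutive pathway that they are set against here. The 10 genes taken were CHGA, CHGB, SCG2, SCG3, SCG5, VGF, PCSK1, PCSK2, CPE and FURIN. Each was looked for by its name, product, gene number or transcript accession in a table of 21817 rows. Of these, 9 were found, in 11 rows, among 21443 genes in all. VGF, a granin-like neuropeptide precursor, had no row under any of these and was not analysed here. Rongchang pigs (Sus scrofa) gave 1 RNA sequencing library from brain and 1 from liver. The tissue was frozen in liquid nitrogen, and its total RNA was extracted. No genotype, treatment, age, sex or brain region is given, nor whether both pieces came from 1 animal.

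Endocrine and neuronal cells store peptide hormones in dense-core secretory granules and release them on demand, while nearly all cells, hepatocytes among them, also secrete proteins continuously without storing them. Granins are acidic proteins that aggregate in the trans-Golgi network and help to form these granules. Inside the granule the convertases encoded by PCSK1 and PCSK2 cut prohormones at pairs of basic residues, and carboxypeptidase E trims the basic residues that remain. Furin cuts proproteins in the trans-Golgi network and at the cell surface of most cells and needs no granule.

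Total counts were 23796843 in brain and 31724498 in liver. Levels are counts per 1000000 (CPM) scaled with TMM, a method that corrects for the different make-up of the libraries. The log2 ratio is brain over liver with 1 CPM added to each level, and folds are without it. With 1 library per tissue there was no test and no replicate check, and all intervals are 95% intervals that cover counting error only. The labels were met by the tissue markers. All 7 neuronal markers with a row passed 4-fold in brain, led by STMN2 and NEFM, and their summed level was 6430 CPM in brain and 12.1 in liver. All 8 hepatocyte markers passed 4-fold in liver, led by ALB and TF, with a sum of 317 CPM in brain and 442844 in liver. In such bulk tissue, fewer cells of a type and less RNA per cell cannot be told apart.

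The measured granins and granule enzymes lay on the brain side and FURIN on the liver side. These members were chosen with earlier results of these data known. All 8 measured granins and granule enzymes lay on the brain side by 4-fold or more, as did 14.6% of the 15570 genes that reached 1 CPM in at least 1 library. FURIN was at 4-fold or more in liver, as were 11.3% of those genes. At a 2-fold mark the members numbered 8 toward brain (27.5% of all tested genes) and 1 toward liver (24.4%), and at an 8-fold mark 7 (8.54%) and 1 (5.7%). The median log2 ratio of the 8 exceeded that of FURIN by 10.65, and the median of all tested genes was 0.01. All 9 found members passed the minimum of 1 CPM, but CHGA, SCG2, SCG5 and PCSK2 did so in brain alone, where they were high, so their count is only a description.

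**Figure D1:**
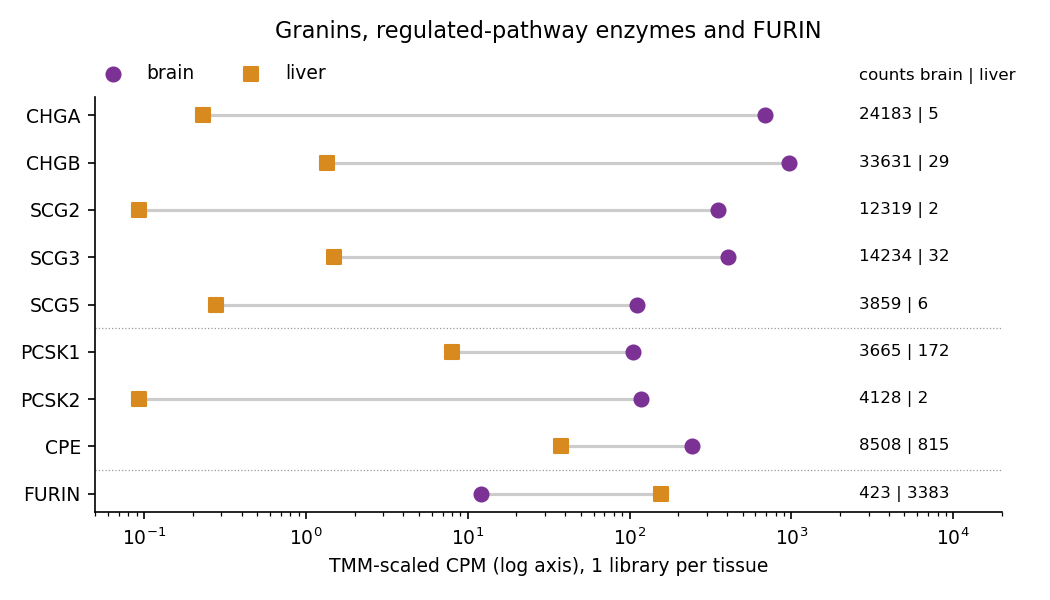
TMM-scaled CPM (log axis) of the 9 measured genes in the brain library (circles) and the liver library (squares), with the counts of each library at the right. The 8 granins and granule enzymes have their circle right of the square, from 104.9 to 962 CPM in brain, and FURIN is the 1 gene with the square at the right.

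The 5 measured granins all lay far toward brain, with log2 ratios of 6.45 to 9.14. Together they held 88226 brain counts, equal to 0.371% of that library (Wilson interval 0.368 to 0.373), and 74 liver counts, equal to 0.000233% (0.000186 to 0.000293). Their summed count was thus 737-fold higher in brain (587 to 939) after scaling.

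Chromogranin A, the product of CHGA, is the best known granin and the parent of several peptides. CHGA had 24183 counts in brain and 5 in liver, which is 692 CPM against 0.231 CPM. This 2990-fold difference (1281 to 9209) gave a log2 ratio of 9.14, rank 6 among all tested genes. Chromogranin B is its closest partner in the granule matrix. CHGB had 33631 counts in brain and 29 in liver, or 962 CPM against 1.34 CPM, a 717-fold difference (499 to 1071) at rank 12. Both granins were scarce in liver, yet the ratio of CHGB to CHGA counts was 1.39 in brain and 5.80 in liver. That ratio was 0.240 times as high in brain (0.0725 to 0.627), an interval that leaves out 1 but rests on 5 CHGA counts in liver.

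SCG2 encodes secretogranin II, the precursor of secretoneurin. It had 12319 counts in brain and 2 in liver, or 353 CPM against 0.0926 CPM, and its fold of 3808 has a wide interval (1054 to 31444). SCG3 encodes secretogranin III, which binds chromogranin A and cholesterol-rich granule membrane. With 14234 counts in brain and 32 in liver, SCG3 was at 407 CPM against 1.48 CPM, a 275-fold difference (195 to 402). The number of SCG2 counts per SCG3 count was 0.865 in brain and 0.0625 in liver, so 13.8 times as high in brain (3.53 to 119). The interval of SCG3 lay wholly below those of SCG2, CHGA and CHGB. The SCG2 row is on an unplaced scaffold of the genome build rather than on a chromosome.

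SCG5 encodes the protein 7B2, which is not a classical granin but the chaperone that PCSK2 needs to become active. SCG5 had 3859 counts in brain and 6 in liver, equal to 110.4 CPM against 0.278 CPM. Its 398-fold difference (182 to 1084) gave a log2 ratio of 6.45. PCSK2, named PC2 in the table, had 4128 counts in brain and 2 in liver, or 118 CPM against 0.0926 CPM, a 1276-fold difference (353 to 10539). The chaperone and its enzyme stood at 0.935 SCG5 counts per PCSK2 count in brain and 3 in liver. Since the liver values are 6 and 2 counts, the ratio of the tissues, 0.312 (0.0307 to 1.74), does not leave out 1.

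The other convertase of the granule did not share the near absence of PCSK2 in liver. PCSK1, named PC1/3 in the table, had 3665 counts in brain and 172 in liver, or 104.9 CPM against 7.96 CPM. The 13.2-fold difference (11.3 to 15.4) gave a log2 ratio of 3.56, at rank 974. Its interval lay wholly below those of PCSK2 and all 5 granins. There were 1.13 PCSK2 counts per PCSK1 count in brain and 0.0116 in liver, 96.9 times as many in brain (26.4 to 807). Gene length and library scaling cancel in that ratio. PCSK1 is on an unplaced scaffold, too.

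CPE had the smallest gap of the 8, and its rows went apart. Summed, it had 8508 counts in brain and 815 in liver, or 243 CPM against 37.7 CPM, a 6.45-fold difference (6.005 to 6.94) and a log2 ratio of 2.66. The table holds CPE in a pair of neighbouring rows under the same transcript accession. The row that spans 36180 bp had 3854 counts in brain and 1 in liver, a 2382-fold difference (427 to 94125). The row that spans 116596 bp had 4654 counts in brain and 814 in liver, a 3.53-fold difference (3.28 to 3.81). All but 1 of the liver counts of CPE thus came from the longer row, and on that row alone the log2 ratio was 1.79, below the 4-fold mark. On the shorter row alone it was 6.73, a choice made after the data were seen.

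CHGB is the other member in a pair of rows, and there the intervals met. Its row of 4035 bp had 32847 counts in brain and 29 in liver, a 700-fold difference (487 to 1046). Its row of 5417 bp had 784 counts in brain and 0 in liver, so that, with a floor of 3 counts, it was at least 162-fold higher in brain. Among 193 genes with a pair of rows and at least 100 counts in each, the rows of CPE differed most, by 7.81 on the log2 scale with counts under 3 set to 3. The median difference was 0.69, and CHGB was at rank 23 with 2.12. The intervals of the rows did not overlap in 102 of the 193 genes. Which part of the gene each row covers, and which other transcripts lie in it, was not tested.

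**Figure D2:**
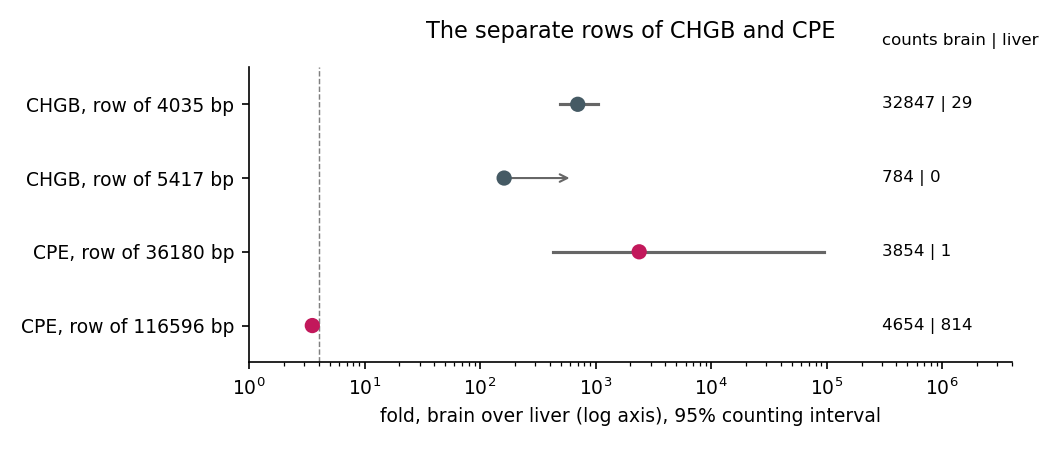
Fold, brain over liver (log axis), for each row of CHGB and CPE, with 95% counting intervals as lines, an arrow for a lower bound and the counts at the right. The dashed line marks 4-fold. The CPE rows sit at 2382-fold and 3.53-fold, while the CHGB rows sit at 700-fold and at 162-fold or more.

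FURIN, whose row names its product only as furin-like, went the other way. It had 423 counts in brain and 3383 in liver, which is 12.1 CPM against 156.6 CPM, a 12.9-fold excess in liver (11.7 to 14.3). The log2 ratio of FURIN was -3.59, rank 640 counted from the liver side. Both libraries held enough FURIN counts to set the other genes against. Since FURIN itself was 12.9-fold higher in liver, each such ratio of the tissues holds that difference as well as the gene's own. A count of each gene per FURIN count needs no scaling, and a gene's own length cancels when the tissues are set side by side.

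In brain there were 18.4 counts of PCSK1 and PCSK2 together per FURIN count, and in liver 0.0514. That ratio was 358 times as high in brain (298 to 431). For PCSK2 alone it was 16507 times as high (4525 to 136528), and for PCSK1 alone 170 times (141 to 206). CPE had 20.1 counts per FURIN count in brain and 0.241 in liver, 83.5 times as many in brain (73.6 to 94.7). That ratio carries the liver counts of the longer CPE row. Among the granins, SCG3 had the smallest such ratio of the tissues, at 3557 (2471 to 5268), and SCG2 the highest, at 49261 (13509 to 407344). The intervals of SCG2 and CHGA overlap, with CHGA at 38681 (16391 to 119555). Since gene lengths differ, these counts compare the tissues and not the genes with each other.

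**Figure D3:**
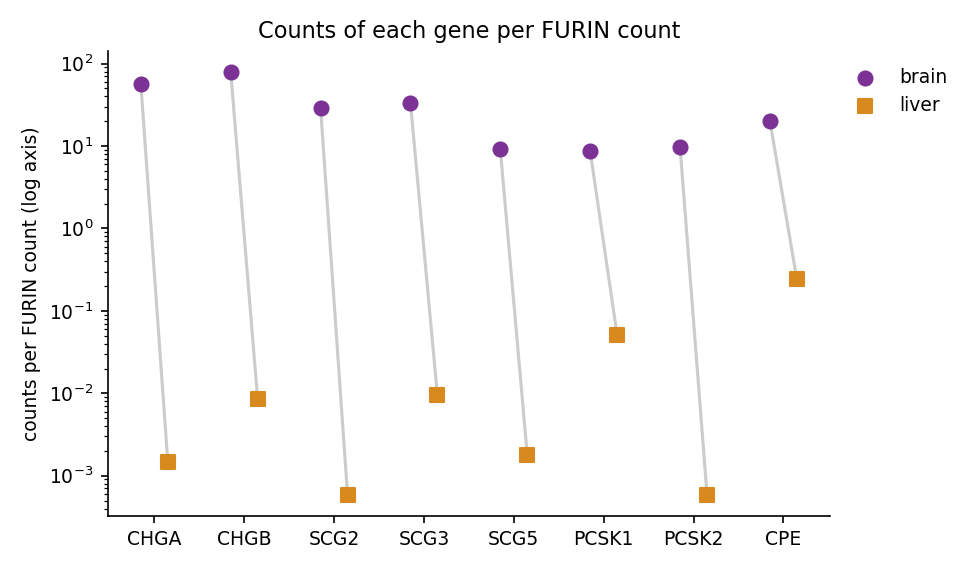
Counts of each granin and granule enzyme per FURIN count (log axis) in brain (circles) and liver (squares). Brain values run from 8.66 for PCSK1 to 79.5 for CHGB, and liver values from 0.000591 for SCG2 and PCSK2 to 0.241 for CPE.

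Of the 6 other subtilisin-like convertases, all measured, 0 reached 4-fold toward brain and 2 toward liver, with a median of -1.40. Among all tested genes the shares were 14.6% and 11.3%, so 0 of 6 toward brain does not set this list apart. On the liver side was PCSK6, at 3.78 CPM in brain and 99.7 in liver (-4.40). MBTPS1, the site-1 protease that activates sterol regulators, had 70.4 CPM in brain and 202 CPM in liver (-1.51). PCSK7, which like furin acts outside granules, had 8.56 CPM in brain and 15.8 CPM in liver (-0.81). There were 1.41 FURIN counts per PCSK7 count in brain and 9.92 in liver, so FURIN differed from PCSK7 as well, by a ratio of 0.143 (0.118 to 0.172). Plain library size in place of TMM adds up to 1.11 to every log2 ratio, which turns a value such as that of PCSK7 positive, and it leaves ratios between genes as they are.

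Other enzymes that act on peptides were not on the brain side as a list. The list is mixed, with cathepsins and aminopeptidases in it, and its counts depend on that make-up. Of 15 such genes 13 had a row and 12 were measured. Of the measured ones, 0 reached 4-fold toward brain (14.6% of all tested genes) and 5 toward liver (11.3%). Their median was -0.75 and became 0.14 with plain library size. PAM, which amidates the end of many neuropeptides, had 153 CPM in brain and 71.7 CPM in liver (log2 ratio 1.09). There were 0.630 PAM counts per CPE count in brain and 1.90 in liver, a ratio of 0.332 (0.302 to 0.364). CPD, the carboxypeptidase that serves the trans-Golgi network beside furin, was chosen after its values were seen. It had 32.6 CPM in brain and 40.6 CPM in liver. CPE had 7.46 counts per CPD count in brain and 0.930 in liver, 8.01 times as many in brain (7.14 to 8.99). Both ratios with CPE carry the liver counts of its longer row. The 5 on the liver side were the cathepsins CTSL, CTSB, CTSH and CTSV and the aminopeptidase ENPEP, of which CTSB, a lysosomal protease, had 160.4 CPM in brain and 1930 CPM in liver. CTSL and CTSV are close relatives, so reads may be shared between them. PCSK1N, the inhibitor of PCSK1, had no row.

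Most measured genes of neuropeptides and neurotrophins were on the brain side. The list was drawn up from such genes, so its lean toward brain was set in good part by that choice. Of 27 neuropeptide and neurotrophin genes 24 had a row and 14 reached 1 CPM. Of these 14 genes, 12 reached 4-fold toward brain (14.6% of all tested genes) and 0 toward liver (11.3%). Most passed through the brain library alone, so this count is only a description. Their median log2 ratio was 3.49. It was 6.30 with no pseudocount and counts under 3 set to 3, 2.01 with no filter, and 1.67 with a pseudocount of 5, which left 6 genes past 4-fold. CCK, the precursor of cholecystokinin, had 142 CPM in brain and 0.648 CPM in liver. CARTPT, of a peptide that curbs feeding, had 94.7 CPM in brain against 0.231 CPM in liver. NPY had 1611 counts in brain and 0 in liver, at least 332-fold higher in brain. PENK, the enkephalin precursor, had 735 counts in brain and 3 in liver, a 151-fold difference (51.6 to 736). AVP had 5 counts in brain and OXT 0, while CRH had 573 and SST 184, all 4 chosen after their values were seen.

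The list of dense-core vesicle formation and release was mixed. Of 30 measured genes 11 reached 4-fold toward brain (14.6% of all tested genes) and 1 toward liver (11.3%), with a median of 1.33. That median was 2.29 with no pseudocount and counts under 3 set to 3, and 0.79 with a pseudocount of 5. With plain library size, which also put the median of all tested genes at 0.98, 17 were on the brain side. The share of all tested genes at 4-fold was not computed for that setting. The 4 highest by mean level were VAMP2, SNAP25, RAB3A and RAB2A. The first 3 serve synaptic vesicle release as well, with log2 ratios of 4.55, 8.44 and 7.01, and RAB2A, a Rab protein of the Golgi, was at -0.42. SYTL4, a granule docking protein also called granuphilin, was the 1 gene on the liver side, at 1.77 CPM in brain and 13.3 in liver. Further genes of the list were chosen after their values were seen. PTPRN, a transmembrane protein of granules, had 3236 counts in brain and 23 in liver. RESP18, a protein of the granule lumen, had 3365 counts in brain and 0 in liver. CADPS, which primes granules for release, had 1442 counts in brain and 22 in liver. Its relative CADPS2 had 4423 in brain and 1895 in liver (log2 ratio 0.52). Other genes of the list also missed the 4-fold mark. Among them were HID1 (-0.005), CCDC186 (0.77), EIPR1 (1.41), RAB27A (-0.61) and RAB27B (-1.07).

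Genes that serve every secreting cell were split. Of 26 measured genes of constitutive secretion and Golgi sorting, 2 reached 4-fold toward brain (14.6% of all tested genes) and 7 toward liver (11.3%). Their median was -0.75 and became 0.33 with plain library size. MCFD2, which with LMAN1 carries clotting factors out of the endoplasmic reticulum, had 40.6 CPM in brain and 472 CPM in liver. COPB1, of the coat of Golgi vesicles, had 32.9 CPM in brain and 160.8 CPM in liver. COPA, of the same coat, was at 110.8 CPM in brain and 155 CPM in liver. MIA3, which exports large cargo, was at 117 CPM in brain and 170.2 CPM in liver. The 2 on the brain side were VAMP3 and the sorting receptor SORT1, at 102.9 and 53.1 CPM in brain against 13.0 and 9.72 CPM in liver. PACS1, the adaptor that returns furin to the trans-Golgi network, was chosen after its values were seen and had 1555 counts in brain and 293 in liver (log2 ratio 1.64).

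A list of liver proproteins and of receptors cut by furin-like enzymes was also read. Since it was drawn up in good part from proteins that liver secretes, its lean toward liver was set in advance by that choice and is only a description. Of its 21 measured genes, 2 reached 4-fold toward brain (14.6% of all tested genes) and 11 toward liver (11.3%), with a median of -3.06. ALB, made as proalbumin, had 44.7 CPM in brain and 276198 CPM in liver. Complement C3 was at 24.8 CPM in brain against 8294 CPM in liver. The anticoagulant gene PROC was at 0.143 CPM in brain against 1716 CPM in liver, and the clotting factor gene F10 at 2.32 CPM in brain against 1199 CPM in liver. The 2 on the brain side were IGF1R, with 39.2 CPM in brain and 5.42 in liver, and SORL1, with 42.8 CPM in brain and 8.24 in liver.

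**Figure D4:**
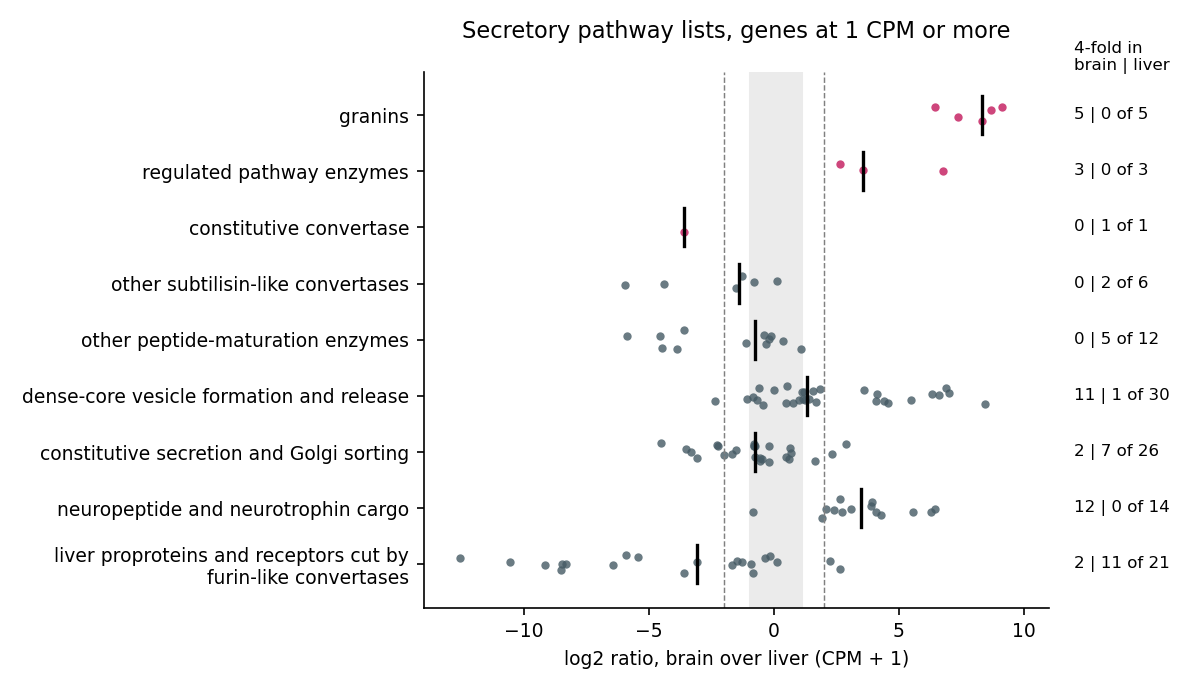
Log2 ratio, brain over liver, of each gene at 1 CPM or more (points) in the 3 groups of members and the 6 pathway lists, with each median as a bar and the number past 4-fold toward brain and toward liver at the right. The grey band holds the middle 50% of all tested genes (-0.97 to 1.13) and dashed lines mark 4-fold. The granins lie between 6.45 and 9.14, FURIN at -3.59, and the list of liver proproteins and receptors, chosen in part as liver proteins, reaches -12.56 with ALB.

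The members also differed in how much of each was counted in liver. Among 406 genes at 100 CPM or more in brain and at 4-fold or more over liver, the liver count was 1.92% of the brain count at the median. It was 0.0162% for SCG2, 0.0207% for CHGA, 0.0484% for PCSK2 and 0.0862% for CHGB, at ranks 15, 19, 34 and 51 from the lowest. SCG5 was at 0.155% and SCG3 at 0.225%. These 6 lay within the range of the neuronal markers, 0.0115 to 0.683% over 7 genes. PCSK1 at 4.69% (4.004 to 5.47) and CPE at 9.58% (8.90 to 10.29) lay above that range, at ranks 273 and 355. The 5 oligodendrocyte markers at 4-fold or more in brain ran from 0.0194 to 9.29%. That range holds the value of PCSK1 and reaches the interval of CPE. It also holds the values of CHGA, PCSK2, CHGB, SCG5 and SCG3, but not that of SCG2. Astrocyte markers past the same mark, 5 in number, ran from 0 to 2.34%, a range that holds all 6 of these genes. The remaining astrocyte marker, ALDH1L1, lay toward liver instead (13.6 CPM in brain, 441 CPM in liver, log2 ratio -4.92) and was left out of that range. The members were compared with the markers in these ranges without a test. Both sample titles carry the same lane and barcode words, and whether brain RNA or reads reached the liver library was not tested, so small liver counts, and the folds that rest on them, hold only for the counts as deposited.

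**Figure D5:**
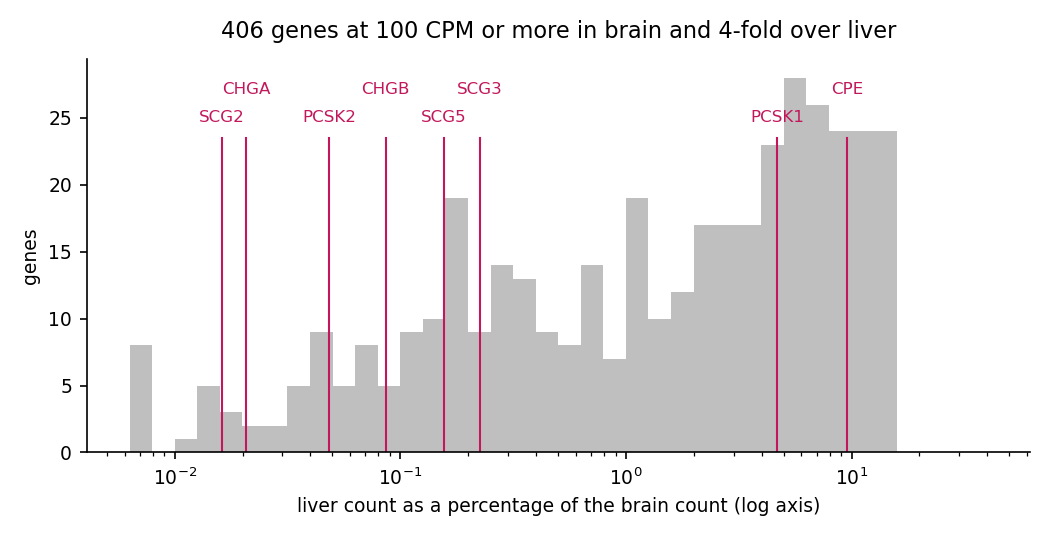
Number of genes by liver count as a percentage of brain count (log axis), for the 406 genes at 100 CPM or more in brain and at 4-fold or more over liver, with the 8 members as lines. The lowest bar also holds the 6 genes with 0 liver counts. Of the members, 6 lie between 0.0162 and 0.225%, and PCSK1 and CPE at 4.69 and 9.58%.

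Granins are also made in large amounts by endocrine cells, so markers of these were read in both libraries. Of 8 anterior pituitary genes with a row, POMC alone reached 1 CPM (4.18 CPM in brain, 0.370 in liver), and the sum of the list was 5.15 CPM in brain and 1.06 in liver. The growth hormone gene GH1 had 1 count in brain and 0 in liver, and POU1F1, a pituitary transcription factor, had 1 in brain and 4 in liver. Of 5 chromaffin and sympathetic genes, DBH and SLC18A1 reached 1 CPM, at 3.06 and 3.29 CPM in brain against 0.231 and 0.463 CPM in liver, and PNMT had 1 count in brain and 0 in liver. The sum of that list was 6.67 CPM in brain and 0.787 in liver. The sum of 7 islet and gut endocrine genes was 11.99 CPM in brain and 10.1 in liver, of which NEUROD1 made up 8.44 CPM in brain and PYY 8.52 CPM in liver, and GCG had 3 counts in brain and 0 in liver. PRL, TH, INS and GIP, which belong to these lists, had no row, so the sums leave them out. Which cells gave the counts of these markers, NEUROD1, POMC and DBH in brain among them, was not tested. The part of endocrine cells in the 172 PCSK1 and 815 CPE counts of liver was not tested either.

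Among the genes with levels most like those of CHGA were NEFL, a neurofilament gene, and GAP43, of growth cones. They lay within 0.12 and 0.29 of it on the log2 scale over both libraries. Nearest to FURIN were ERLIN1, CIB1 and TOP2A, within 0.04, 0.12 and 0.14. With 1 library per tissue such likeness rests on a pair of values per gene.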

How the data were processed

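RNA sequencing of 1 brain and 1 liver library was used. The values are raw counts per gene row, deposited by the authors in 1 table, and were read as counts because they are whole numbers with different totals. The gene length in that table, also deposited by the authors, spans introns, so no level was compared between genes. TopHat aligned the reads to Sscrofa10.2 (susScr3), per the submitters' processing notes. Not given in the sources used here are its version, how reads were counted and whether strand was used.

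Names came from the table for 7816 rows, and by gene number, transcript accession or synonym from a RefSeq gene table of Sscrofa11.1 for 6594, 366 and 26. Another 13 rows are mitochondrial and 7002 stayed unnamed, and all entered the totals. PCSK1 and PCSK2 were matched by accession and FURIN by gene number, where the product reads furin-like. Rows of a gene were summed.

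Scaling used TMM in edgeR 4.0.16 (R 4.3.3) with factors of 1.47 for brain and 0.681 for liver, and no test from that package. A gene was counted where either library reached 1 CPM, with a call at 4-fold (log2 ratio with a pseudocount of 1). A floor of 3 counts is 0.0858 CPM in brain and 0.139 in liver. Folds have exact conditional binomial intervals, shares Wilson intervals, and ratios between genes exact conditional odds ratio intervals (SciPy 1.17.1). The calls and intervals were also run on simulated counts, with the same mean profile in both libraries, known folds and plain library size. That run did not test TMM, the naming of rows or variation between animals. Named genes are the members, the 4 highest of each pathway list by mean level, members of a list at 4-fold or more against its median, the 2 highest of a marker list, and the 3 nearest to CHGA and FURIN. Some genes that this rule takes are left out of the text. The members and lists were chosen with earlier results of these data known. Alternatives were DESeq2 1.42.0 size factors, other scalings, pseudocounts, filters and fold marks, and the highest row per gene. A name choice and a row choice were added after the data were seen.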

Additional observations from a re-analysis of the deposited data

How the results depend on the processing

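In each of the 10 settings chosen in advance the 8 granins and granule enzymes had positive log2 ratios and FURIN a negative one, from -3.68 to -2.52. The number at 4-fold or more in brain was 8, except 7 at an 8-fold mark and 7 with the highest row per gene, where CPE was at 1.79. FURIN was on the liver side in all of them. With the rows named PC1/3 and PC2 left out, a choice made after the data were seen, the number was 6. The median of the regulated genes exceeded FURIN by 10.31 with plain library size, 11.02 without the 50 highest genes of either library, 12.41 with a pseudocount of 0.1, 8.53 with one of 5, and 11.44 without PC1/3 and PC2. The share of all tested genes at 4-fold was not computed for other scalings, pseudocounts or filters. Plain library size put the median of all tested genes at 0.98. It left 17 vesicle genes in brain and 0 in liver, 1 peptide-finishing enzyme in brain, and 4 constitutive genes in liver. The medians of the peptide-finishing list (0.14) and the constitutive list (0.33) turned positive with it, and the median of all genes was -0.082 with a minimum of 5 CPM. Without the 50 highest genes 4 constitutive genes were in liver. A pseudocount of 5 gave 0 vesicle genes in liver, 1 constitutive gene in brain, 6 peptide genes in brain and 1 gene of the list of liver proproteins and receptors in brain. At 2-fold, 4 other convertases were in liver, 1 peptide-finishing enzyme and 20 vesicle genes in brain and 2 vesicle genes in liver. At 8-fold, 0 vesicle genes were in liver, 0 constitutive genes in brain and 4 in liver, and 0 of the proprotein list in brain. The cause of these changes was not tested. Liver counts of 2 to 6 limit the folds of SCG2, PCSK2, CHGA and SCG5. No paired analysis was possible because each tissue has 1 library.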
